A study of Mus musculus with 8 samples.

Results

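The genes described here are 10 members of the Wnt/β-catenin pathway that sets liver zonation: Ctnnb1, Tcf7l2, Lgr4, Lgr5, Rnf43, Znrf3, Axin2, Nkd1, Tbx3 and Lect2. They were taken by gene name from a table of read counts for 56748 genes, and each of the 10 names had a row. RNA was sequenced from mouse primary hepatocytes kept for 24 h on hydrogels coated with collagen, whose stiffness was 1 kPa (soft) or 20 kPa (stiff), with 2 libraries in each of 4 groups. The soft and stiff gels stand for healthy and fibrotic liver. Cells of every group came from C57BL/6J Yap fl/fl;Taz fl/fl mice. Per the study's methods the mice were 7 to 8 weeks old when given virus, and also carried the ROSA26-LSL-tdTomato reporter. The Yap/Taz knockout (KO) mice were given AAV8-TBG-Cre, in which the hepatocyte promoter TBG drives Cre, and the mice labelled wild-type (WT) were given AAV8-TBG-Null. Hepatocytes were isolated 10 days after the virus. The WT cells thus carried the floxed alleles too, and any non-hepatocytes in the cultures would have kept Yap and Taz in both genotypes. The sources do not say whether the 2 libraries of a group came from separate mice, so p-values measure the spread between libraries, which may be technical.

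Wnt ligands bind Frizzled receptors and LRP coreceptors, which stops the destruction complex from degrading β-catenin, so that β-catenin enters the nucleus and acts with TCF factors. R-spondins bind LGR receptors and thereby remove the ubiquitin ligases RNF43 and ZNRF3, which otherwise clear Frizzled from the cell surface. In the liver, endothelial cells of the central vein supply Wnt ligands and R-spondin 3, and the nearby pericentral hepatocytes express β-catenin target genes such as Glul, Cyp2e1, Axin2 and Lgr5, whereas periportal hepatocytes express another set that includes Cyp2f2.

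Library totals were between 18324083 and 26442310 counts. The deleted genes followed the labels: Yap1 had 95.5 to 140 normalized CPM (counts scaled to a common library size by TMM) in the 4 WT libraries and 28.4 to 31.8 in the 4 KO libraries, and Wwtr1, which encodes TAZ, had 41.5 to 65.2 and 13.7 to 16.6. Albumin and the other 7 hepatocyte markers had counts in every library. Their summed CPM was 92763 to 93301 in WT soft, 94594 to 96143 in WT stiff, 64897 to 65367 in KO soft and 64692 to 64857 in KO stiff libraries, most of it from Alb, at 81619 to 87361 CPM in WT and 54501 to 55125 in KO libraries. Markers of other liver cells were also counted. Over 8 genes each, the summed CPM in WT soft, WT stiff, KO soft and KO stiff libraries was 80.9 to 84.0, 56.8 to 62.5, 116 to 117 and 118 to 120 for Kupffer cells and macrophages. For endothelial cells it was 62.8 to 68.8, 49.5 to 50.9, 81.8 to 83.4 and 84.5 to 87.0, and for stellate cells and fibroblasts 34.3 in both WT soft libraries, 21.8 to 24.1, 47.7 to 48.9 and 50.0 to 52.5. All 8 markers of the first 2 lists had counts in every group, and among the stellate markers only Lrat was at 0, in WT stiff. The 8 cholangiocyte markers summed to 571 to 603, 622 to 626, 366 to 367 and 341 to 351 CPM, with Cftr at 0 in every group. The series text describes the mice as female, and the growth protocol and the study's methods describe them as male. Xist had 4818 to 8443 counts in each library, and the Y-linked genes Ddx3y, Eif2s3y, Kdm5d and Uty had 0 counts in every library. These counts are those of female cells, so the male description does not match the libraries.

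The members spanned a wide range of levels. Per kilobase of gene length in WT soft libraries, Ctnnb1, which encodes β-catenin, came first at 105 ± 0.471 CPM per kb (mean ± SD, n = 2). Lect2 followed at 13.8 ± 0.806, then Lgr4 at 9.10 ± 0.0890, Znrf3 at 1.63 ± 0.0793, Tcf7l2 at 1.42 ± 0.239, Rnf43 at 0.810 ± 0.124 and Tbx3 at 0.460 ± 0.0255. Axin2, Nkd1 and Lgr5 lay at 0.0276 ± 0.0105, 0.0206 ± 0.00528 and 0.00999 ± 0.00883 CPM per kb, so that the neighbours Znrf3 and Tcf7l2, and these last 3 genes, did not differ beyond their spread. In WT stiff libraries Lect2 stood at 7.45 ± 1.70 and Lgr4 at 7.80 ± 0.342 CPM per kb, which also overlapped. In the KO libraries Lect2 was again above Lgr4, at 21.6 ± 2.34 against 8.06 ± 0.671 on the soft gel and 22.0 ± 4.09 against 8.79 ± 0.632 on the stiff gel. Of the 10 genes, 7 passed the filter on low counts and were tested among 14279 genes, whereas Axin2, Nkd1 and Lgr5 were below it. The 7 tested genes had between 54 and 14632 counts in each library, so none passed through 1 group alone.

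**Figure D1:**
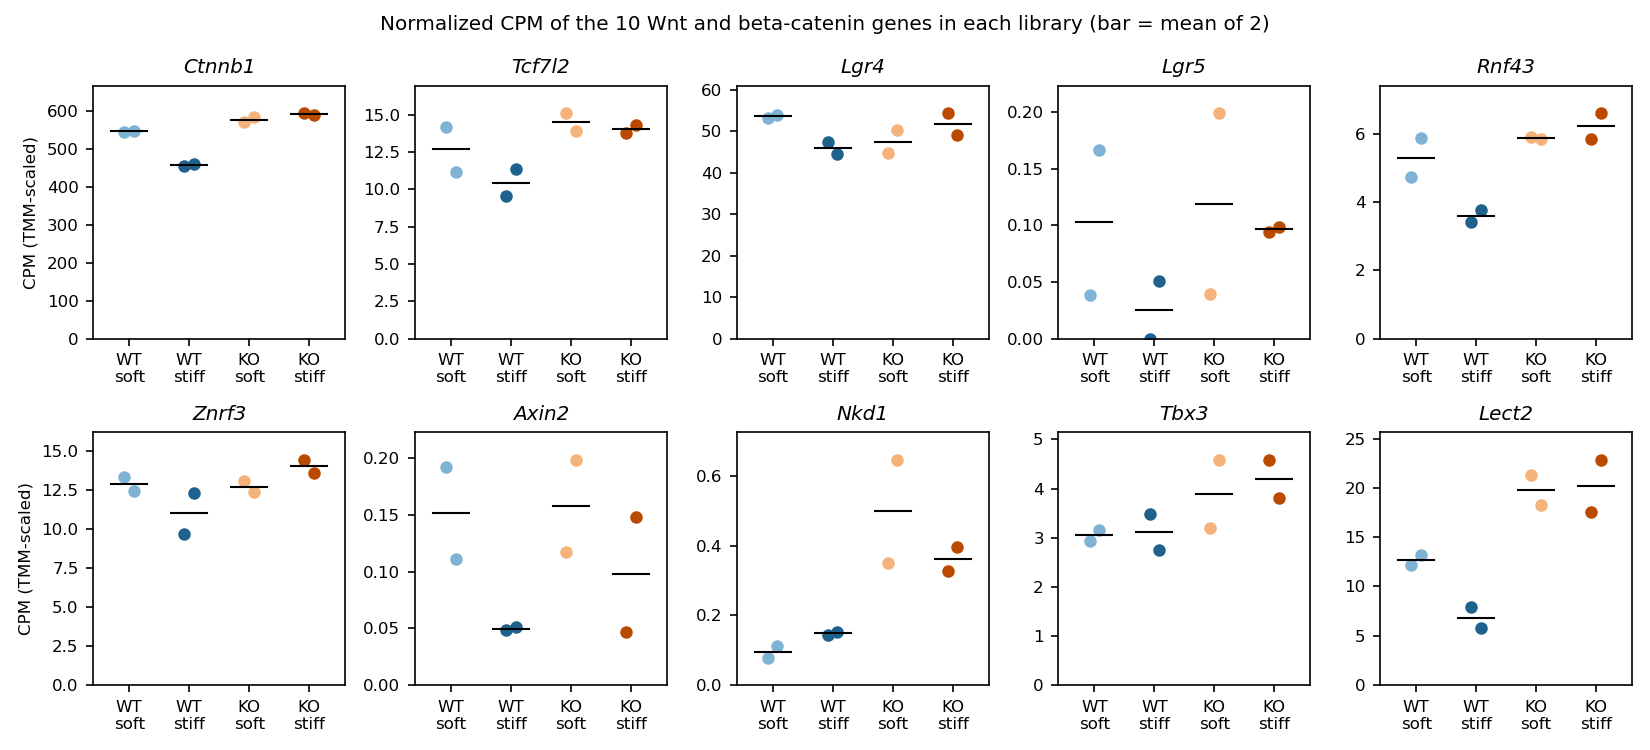
Normalized CPM (y axis, linear, from 0, scaled separately for each gene) of the 10 genes in each of the 8 libraries, with 1 point per library, a bar at the mean of 2 and the 4 groups along the x axis. Lect2 is lowest in the WT stiff libraries, at 7.96 and 5.74 CPM, and highest in the KO libraries, while Axin2, Nkd1 and Lgr5 stay under 0.7 CPM.

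The promoters of the genes whose levels changed are shown first, because members that move together may be compared for shared letters. RefSeq (GRCm38.p6) gave 10 promoter windows for 7 of the 10 genes, and Lgr5, Znrf3 and Tbx3 were not matched. Each window, from 250 bases before to 50 bases after a gene start, was searched on both strands for the TCF letters CTTTGAT or CTTTGAA and for the TEAD letters GGAATG. TCF factors are the DNA-binding partners of β-catenin and TEAD factors those of YAP and TAZ. The 250 bases before the start of Lect2 (chr13:56548539-56548788, minus strand) and before the 2 starts of Rnf43 (chr11:87662837-87663086 and chr11:87699647-87699896, plus strand) read 5′ to 3′ as follows, with capitals marking a match, here on the strand opposite to the gene.
Lect2: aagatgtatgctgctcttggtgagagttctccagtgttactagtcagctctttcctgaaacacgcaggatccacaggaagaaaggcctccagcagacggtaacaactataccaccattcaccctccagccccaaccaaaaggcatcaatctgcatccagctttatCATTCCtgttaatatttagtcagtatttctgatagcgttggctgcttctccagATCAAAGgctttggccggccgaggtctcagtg
Rnf43, the first start: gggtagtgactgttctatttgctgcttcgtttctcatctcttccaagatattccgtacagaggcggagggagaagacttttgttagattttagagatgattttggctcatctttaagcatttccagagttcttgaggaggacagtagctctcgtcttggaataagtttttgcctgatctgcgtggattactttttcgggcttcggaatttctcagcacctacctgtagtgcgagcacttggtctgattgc
Rnf43, the second start: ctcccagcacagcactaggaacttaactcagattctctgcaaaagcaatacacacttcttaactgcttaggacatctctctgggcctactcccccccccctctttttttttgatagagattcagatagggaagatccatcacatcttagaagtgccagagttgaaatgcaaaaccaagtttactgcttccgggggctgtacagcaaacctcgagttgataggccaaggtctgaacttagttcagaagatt
Positions give the first base of a match as read along the gene's strand, with minus counted back from the start. Lect2 held the TCF letters at -32 and the TEAD letters at -85, and a further TEAD match at 20 bases after the start. Neither Rnf43 window held either. Among the other members, Lgr4 had TEAD letters at -178 and -158, and the windows of Ctnnb1, Tcf7l2, Axin2 and Nkd1 had no match. Of 32851 promoter windows of this length, 8.7% held the TCF letters, 14.7% the TEAD letters and 1.47% both. A match shows only that the letters occur in the window.

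Stiffness was compared first in WT cells. On the stiff gel Lect2 and Rnf43 fell, and the other 5 tested genes were not called. Of these 5, Ctnnb1 and Lgr4 had an adjusted p under 0.05 by edgeR but changed by less than the size required. The 2 genes called lower and 0 called higher stood among 7 tested, where 9.26% of all tested genes were called lower and 10.0% higher. A gene was called where edgeR's quasi-likelihood test gave a Benjamini-Hochberg adjusted p under 0.05 and its log2 fold change was beyond 0.5 in either direction. The median log2 fold change of the 7 genes was -0.25, against -0.01 over all tested genes, and 6 of the 7 values were below 0.

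Lect2 encodes a protein that hepatocytes secrete into blood, and it is a known β-catenin target in liver. Its level was 12.2 and 13.2 CPM in the WT soft libraries and 7.96 and 5.74 in the WT stiff libraries, where it had 165 and 113 counts. Both stiff libraries were thus below both soft libraries. The log2 fold change was -0.88 ± 0.163 (SE, 0.54-fold), with an adjusted p of 0.000255 by edgeR, and it stayed between -1.13 and -0.67 in the 18 alternative fits, all of which kept the call. The deposited table places Lect2 on chromosome 13 from 56690277 to 56696315, minus strand.

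Some markers of non-parenchymal cells were called lower beside Lect2. In WT cells on the stiff gel, 4 of 8 Kupffer cell and macrophage markers, 3 of 8 endothelial markers and 3 of 7 tested stellate and fibroblast markers were called lower, and 0, 0 and 1 were called higher, while 3 of 8 hepatocyte markers were called lower and 0 higher. Of 6 tested cholangiocyte markers 1 was called lower and 1 higher. Over all tested genes in this comparison, 9.26% were called lower and 10.0% higher. Across the 8 libraries the tested gene with the pattern most like Lect2 was Ctss, the lysosomal protease cathepsin S, with a Pearson r of 0.998 for log2 CPM, followed by Naxe at 0.993. Lect2 shared an r over 0.9 with 1374 genes, and the points share the 4 groups, so r describes the pattern over groups. The part of these cells in the result was not tested, and in bulk samples fewer cells of a type and less RNA per cell cannot be told apart.

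Rnf43, one of the ligases that clear Frizzled and itself a β-catenin target, had 4.74 and 5.89 CPM in WT soft and 3.42 and 3.76 in WT stiff libraries. The groups did not overlap, although only 71 to 123 counts lay behind each value. The log2 fold change was -0.55 ± 0.186 (SE, 0.68-fold; edgeR, adjusted p = 0.0236). This call was lost with DESeq2 (adjusted p = 0.0844) and when WT soft replicate 2 (-0.40, edgeR, adjusted p = 0.179), WT stiff replicate 1 (-0.48, 0.143) or WT stiff replicate 2 (-0.62, 0.0587) was left out. Its paralog Znrf3 had 13.3 and 12.4 CPM in WT soft and 9.69 and 12.3 in WT stiff libraries, with a log2 fold change of -0.23 ± 0.128 (SE; edgeR, adjusted p = 0.167). The Znrf3 libraries did not overlap, but 12.4 and 12.3 CPM nearly met. An overlapping noncoding gene, 1110028F11Rik, lies on the strand of Rnf43 and had a mean of 6.12 counts per library.

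Ctnnb1 itself gave the most precise value. It had 546 and 549 CPM in WT soft and 456 and 462 in WT stiff libraries, without overlap. The log2 fold change of -0.25 ± 0.0353 (SE, 0.84-fold) had an adjusted p of 1.22e-05 by edgeR but was smaller than the 0.5 required for a call. Lgr4, the R-spondin receptor with the higher level in these cells, behaved alike in size: 53.2 and 53.9 CPM on the soft gel and 47.3 and 44.5 on the stiff gel, with a log2 fold change of -0.22 ± 0.0714 (SE; edgeR, adjusted p = 0.0184), again under the threshold of size.

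Tcf7l2 and Tbx3 gave no call either. Tcf7l2, the main TCF partner of β-catenin in liver, had 14.2 and 11.2 CPM in WT soft and 9.55 and 11.3 in WT stiff libraries. Its groups overlapped, and the log2 fold change was -0.29 with a 95% interval from -0.58 to -0.01 (edgeR, adjusted p = 0.0939). Tbx3, a T-box repressor and β-catenin target, had 2.93 and 3.17 CPM on the soft gel, and 3.47 and 2.74 on the stiff gel. The log2 fold change of Tbx3 was 0.04 with a 95% interval from -0.47 to 0.54 (edgeR, adjusted p = 0.923), so a change of up to about that size in either direction was not detectable at 54 to 76 counts per library.

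**Figure D2:**
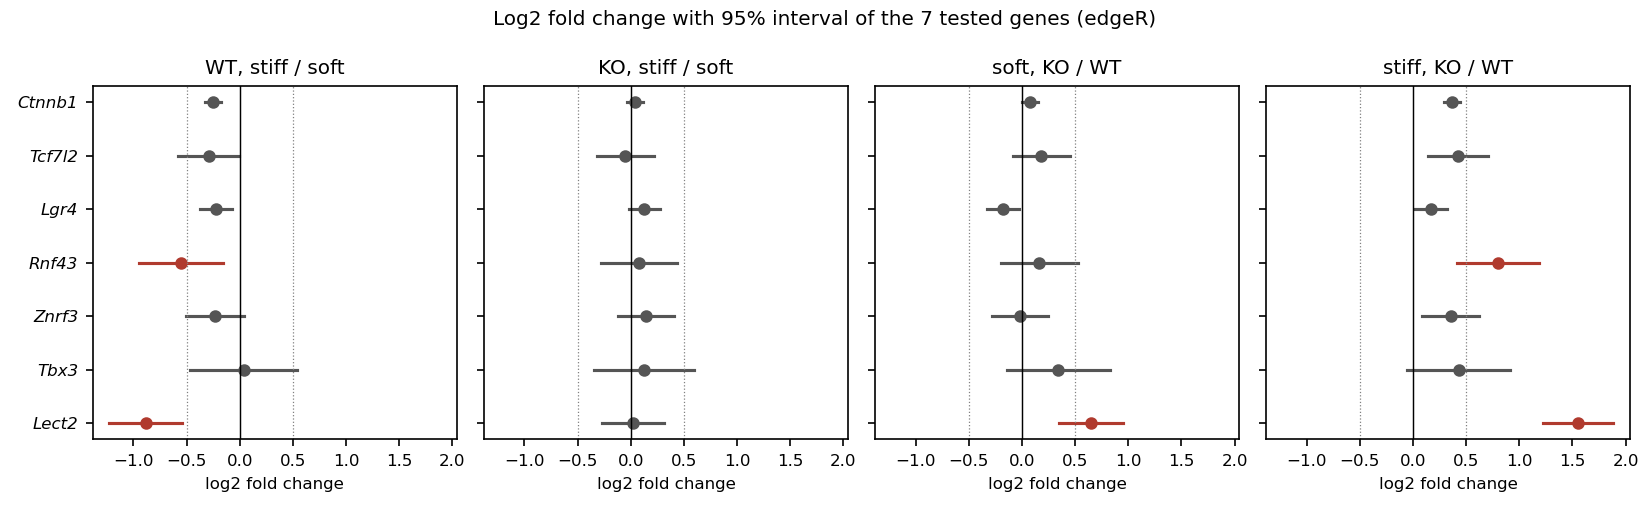
Log2 fold change (x axis, same scale in each panel) of the 7 tested genes with its 95% interval from edgeR, for stiff over soft in WT and in KO cells and for KO over WT on each gel. Red marks a called gene, dotted lines mark -0.5 and 0.5, and the points of the KO stiffness panel lie between -0.05 and 0.14.

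In KO cells stiffness moved none of the tested members past the thresholds. No member was called, with 0 of the 7 at an unadjusted p under 0.05 by edgeR and 0 called by DESeq2, and only 0.0210% of all tested genes were called. Lect2 had 21.3 and 18.3 CPM in KO soft and 17.6 and 22.9 in KO stiff libraries, which overlapped. Its log2 fold change was 0.02 with a 95% interval from -0.27 to 0.31, and the sign turned in 2 of the 8 fits that left out a library. Rnf43 had 5.93 and 5.87 CPM on the soft gel, and 5.85 and 6.62 on the stiff gel, a log2 fold change of 0.08 with an interval from -0.28 to 0.44. Ctnnb1, at 571 and 585 CPM on the soft gel, and 596 and 592 on the stiff gel, differed by a log2 fold change of 0.04 with an interval from -0.04 to 0.11. The WT value of -0.25 for Ctnnb1 lay outside that interval.

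The remaining tested members were close to 0 in KO cells as well. Lgr4 had 44.6 and 50.2 CPM in KO soft and 54.4 and 49.1 in KO stiff libraries, which overlapped. Znrf3 had 13.1 and 12.4 CPM on the soft gel, and 14.5 and 13.6 on the stiff gel, where the groups did not overlap but the log2 fold change of 0.14 had an adjusted p of 0.812 by edgeR. Tcf7l2 had 15.1 and 13.9 CPM against 13.8 and 14.3, and Tbx3 had 3.20 and 4.58 against 4.59 and 3.80, and in each case the soft and stiff libraries overlapped.

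The difference between the 2 stiffness responses was tested as an interaction term. Lect2 alone of the 7 genes was called, where 8.64% of all tested genes were called in the same direction. The interaction for Lect2 was 0.90 ± 0.213 on the log2 scale (SE; edgeR, adjusted p = 0.00346), and it stayed between 0.68 and 1.15 in 17 alternative fits. For Ctnnb1 it was 0.29 ± 0.0498 (SE; edgeR, adjusted p = 0.00019) and for Lgr4 0.35 ± 0.101 (SE; edgeR, adjusted p = 0.0131), both under the threshold of size. Rnf43 had the second highest value, 0.63 ± 0.252, but an adjusted p of 0.0696 by edgeR, and it was called without WT soft replicate 1 (0.78; edgeR, adjusted p = 0.0449). The values for Znrf3, Tcf7l2 and Tbx3 were 0.37, 0.24 and 0.09, with adjusted p of 0.133, 0.366 and 0.875 by edgeR, and Znrf3 was called without WT stiff replicate 2 (0.55; edgeR, adjusted p = 0.0447). All 7 values were above 0, where the median over all tested genes was 0.02.

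Genotype was then compared on each gel. These comparisons share libraries with those of stiffness, so their values are not independent of them. On the soft gel Lect2 rose in KO cells, from 12.2 and 13.2 CPM to 21.3 and 18.3, without overlap, and was the 1 member called among 7 tested, where 2.02% of all tested genes were called higher and 4.65% lower. Its log2 fold change was 0.65 ± 0.143 (SE, 1.57-fold; edgeR, adjusted p = 0.00311). Without KO soft replicate 1 the value was 0.53, with an adjusted p of 0.0702 by edgeR, and the call was lost. For the other 6 tested genes the log2 fold changes ran from -0.18 for Lgr4 (edgeR, adjusted p = 0.0951) to 0.34 for Tbx3 (0.347).

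On the stiff gel Lect2 and Rnf43 rose in KO cells. These 2 of 7 tested genes were called higher, where 13.7% of all tested genes were called higher and 15.0% lower. Lect2 went from 7.96 and 5.74 CPM in WT to 17.6 and 22.9 in KO libraries, a log2 fold change of 1.56 ± 0.157 (SE, 2.94-fold; edgeR, adjusted p = 1.39e-07). Rnf43 went from 3.42 and 3.76 CPM to 5.85 and 6.62, a log2 fold change of 0.80 ± 0.183 (SE, 1.74-fold; edgeR, adjusted p = 0.00137). In both genes the lowest KO library was above the highest WT library, and both calls held in the 18 alternative fits. Beside them, 7 of 8 Kupffer cell and macrophage markers, 6 of 8 endothelial markers and 6 of 7 tested stellate markers were called higher in KO cells on the stiff gel, and 0, 0 and 1 lower. On the soft gel these lists had 3, 2 and 3 genes called higher and 0 lower. The share over all tested genes there was 2.02% higher and 4.65% lower. Cholangiocyte markers had 0 of 6 called higher and 2 lower on either gel, and of 8 hepatocyte markers 0 were called higher and 1 lower on the soft gel, and 2 higher and 1 lower on the stiff gel. The part of these cells in the Lect2 and Rnf43 values was not tested.

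The other members were also higher in KO than in WT libraries on the stiff gel, by less than the size required. Ctnnb1 had a log2 fold change of 0.37 ± 0.0353 (SE; edgeR, adjusted p = 6.70e-08), from 456 and 462 to 596 and 592 CPM. Tcf7l2 had 0.43 ± 0.134 (SE; edgeR, adjusted p = 0.0128) and Znrf3 0.35 ± 0.128 (SE; edgeR, adjusted p = 0.0280), and both became calls when WT stiff replicate 2 was left out, at 0.54 and 0.53. Lgr4 and Tbx3, at 0.17 and 0.43, had adjusted p of 0.0517 and 0.128 by edgeR. In each of the 7 genes the KO libraries lay above the WT libraries on this gel without overlap, as did those of 37.7% of all tested genes, while 36.8% lay below. The median log2 fold change of the 7 genes was 0.43, against 0.01 over all tested genes.

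Axin2, Nkd1 and Lgr5, widely used readouts of Wnt signaling, were near the limit of detection. Axin2, the scaffold of the destruction complex that β-catenin induces, had 5 and 2 counts in WT soft, 1 and 1 in WT stiff, 3 and 4 in KO soft and 1 and 3 in KO stiff libraries. Lgr5, an R-spondin receptor found on pericentral hepatocytes, had 1 and 3, 0 and 1, 1 and 4, and 2 and 2 counts in the same order. Its count of 0, in WT stiff replicate 1, allows a level of up to 0.145 CPM, which covers counting error only. Most of these values are within the 3 counts that a count of 0 allows, so differences for Axin2 and Lgr5 were not detectable at this depth.

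Nkd1, a cytoplasmic inhibitor that binds dishevelled, had 2 and 2 counts in WT soft, 3 and 3 in WT stiff, 9 and 13 in KO soft and 7 and 8 in KO stiff libraries. The 4 KO libraries lay above the 4 WT libraries, at 0.430 ± 0.147 against 0.121 ± 0.0345 CPM (SD, n = 4 each over both gels), with 37 against 10 counts in all. This order is a description, chosen after the values were seen. In edgeR without the filter, Nkd1 had a log2 fold change of 2.36 ± 0.977 (SE; adjusted p = 0.0984) on the soft and 1.24 ± 0.948 (adjusted p = 0.418) on the stiff gel, so it was not called on either. The highest Nkd1 library reached 0.647 CPM.

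Pericentral and periportal genes of hepatocytes were counted beside the members, from lists written with earlier results of these data known. In WT cells on the stiff gel 8 of 17 tested pericentral genes were called lower and 1 higher, where 9.26% and 10.0% of all tested genes were. The median over the list was -0.55 on the log2 scale. Glul, which encodes glutamine synthetase and borders the central vein, had 166 and 161 CPM in WT soft and 85.9 and 92.1 in WT stiff libraries, and 190.5 to 199 in the 4 KO libraries. Its log2 fold change with stiffness in WT cells was -0.88 ± 0.0505 (SE; edgeR, adjusted p = 1.14e-10). The values for Glul and Lect2 were thus both -0.88.

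The cytochromes moved further. Cyp2e1, which oxidizes ethanol, had a log2 fold change of -1.75 and Cyp1a2, which metabolizes caffeine, of -1.27 in WT cells on the stiff gel (edgeR, adjusted p = 1.08e-14 and 1.68e-13). The sodium-coupled dicarboxylate carrier Slc13a3 had -1.87 (edgeR, adjusted p = 0.0133), on 4 counts in each WT stiff library, and this call was lost when any of WT soft replicate 2, WT stiff replicate 1 or WT stiff replicate 2 was left out. In the other direction, the retinaldehyde dehydrogenase Aldh1a1 rose by 1.58 (edgeR, adjusted p = 2.64e-14). Oat, ornithine aminotransferase, had a value of 0.31 (edgeR, adjusted p = 0.0217), not called. In KO cells 0 of the 17 were called for stiffness, where 0.0210% of all tested genes were. Also 0 of the 17 had an unadjusted p under 0.05 by edgeR, where 1077 of all 14279 tested genes did. In KO over WT on the soft gel, 3 were called higher and 2 lower, where the shares over all tested genes were 2.02% and 4.65%. On the stiff gel 8 were called higher and 3 lower, where the shares were 13.7% and 15.0%.

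Periportal genes had no common direction with stiffness in WT cells. Of 18, 4 were called higher and 3 lower around a median of 0.05 on the log2 scale. The shares over all tested genes were 10.0% and 9.26%. Cyp2f2, a cytochrome of periportal cells, rose from 179 and 179 to 337 and 333 CPM, a log2 fold change of 0.91 (edgeR, adjusted p = 1.66e-11), and the mitochondrial Aldh1b1 rose by 1.03 (edgeR, adjusted p = 1.22e-06). G6pc, which encodes glucose-6-phosphatase, had -1.73, the lipid-droplet enzyme Hsd17b13 -0.60 and Hal, histidine ammonia-lyase, -0.52 (edgeR, adjusted p = 2.44e-12, 2.73e-08 and 0.00106), and the call for Hal was lost without WT soft replicate 1 or WT stiff replicate 1. Sds, serine dehydratase, had 17 to 26 counts in the WT libraries and a value of 0.02 (edgeR, adjusted p = 0.976). In KO against WT, 11 of 18 periportal genes were called lower and 1 higher on the soft gel, with a median of -0.65, and 10 lower and 1 higher on the stiff gel, with a median of -0.72. The 1 gene called higher was G6pc on both gels. Over all tested genes, 2.02% were called higher and 4.65% lower on the soft gel, and 13.7% and 15.0% on the stiff gel.

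**Figure D3:**
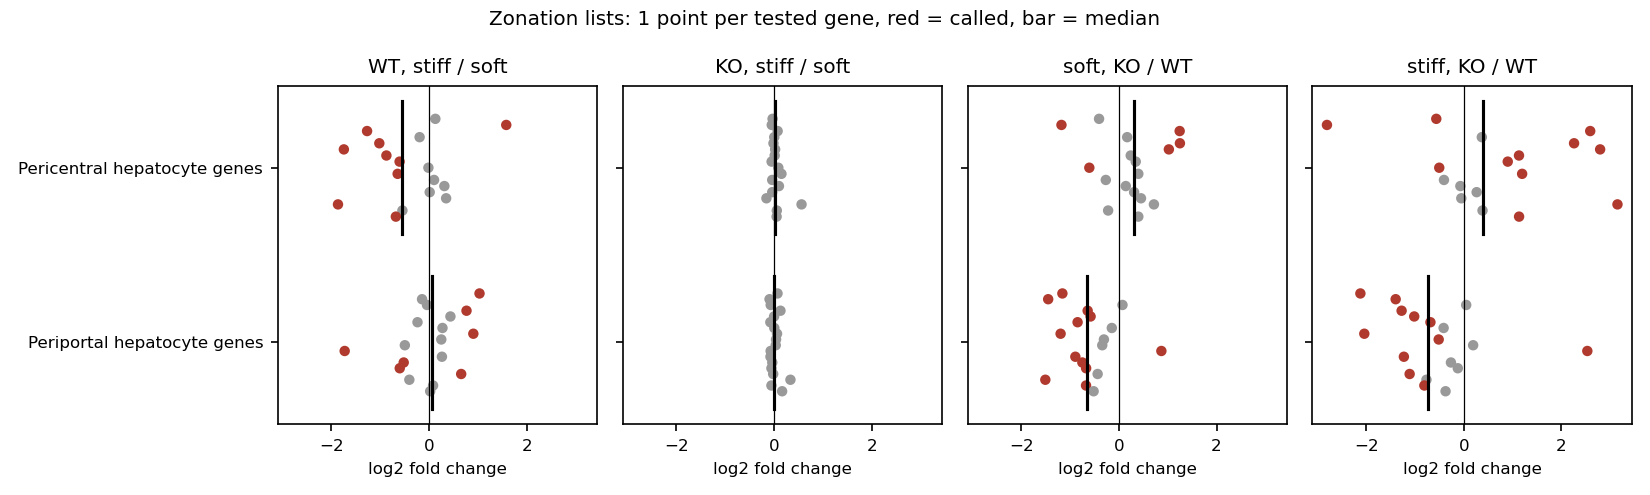
Log2 fold change (x axis, same scale in each panel) of the tested pericentral (17) and periportal (18) genes for stiff over soft in WT and KO cells and for KO over WT on each gel, with 1 point per gene, red for a called gene and a bar at the median. The pericentral median is -0.55 for WT stiffness and 0.38 for KO over WT on the stiff gel, and the periportal median is -0.65 and -0.72 for KO over WT on the soft and stiff gel.

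The Wnt ligands that central vein endothelial cells release were barely counted. Wnt2 had 0 to 4 counts and Wnt9b 0 or 1 count in each library, so no change could be read for them. Rspo3 had 2.58 and 2.83 CPM in WT soft and 1.69 and 2.39 in WT stiff libraries (edgeR, adjusted p = 0.276). In KO it had 1.41 and 1.34 CPM on the soft gel, and 1.17 and 0.889 on the stiff gel, with log2 fold changes against WT of -0.97 and -0.97 (edgeR, adjusted p = 0.0269 and 0.0173), and both calls were lost with DESeq2 (adjusted p = 0.10 and 0.0555). On the soft gel the edgeR call was also lost when any of its 4 libraries was left out, and on the stiff gel without WT stiff replicate 2 or KO stiff replicate 2. Of the 8 endothelial markers, 2 were called higher and 0 lower in KO cells on the soft gel, where 2.02% and 4.65% of all tested genes were. On the stiff gel 6 were called higher and 0 lower, where the shares were 13.7% and 15.0%. On each gel 1 of these markers had a value below 0. The part of endothelial cells in the Rspo3 values was not tested.

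Among the 24 Wnt ligands, R-spondins and secretion factors, 9 were tested. In WT cells on the stiff gel 2 of them were called higher and 0 lower, where 10.0% and 9.26% of all tested genes were. Wnt7a rose from 14 and 9 to 105 and 74 counts (log2 fold change 3.07; edgeR, adjusted p = 9.78e-06) and Wnt9a from 5.70 and 3.78 to 10.9 and 9.76 CPM (1.10; edgeR, adjusted p = 9.24e-05). Of 14 tested receptors and dishevelled genes, 3 were called higher and 0 lower, beside the same shares. Ror1, a receptor of noncanonical Wnt signaling, rose by 1.90 and Fzd4, a Frizzled receptor, by 1.26 on the log2 scale (edgeR, adjusted p = 7.78e-06 and 5.41e-09). In KO cells no gene of either list was called, where 0.0210% of all tested genes were. Of the 9 and the 14, 0 and 0 had an unadjusted p under 0.05 by edgeR, where 1077 of all 14279 tested genes did.

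None of the 14 tested destruction complex genes was called for stiffness in either genotype, and their log2 fold changes in WT cells were between -0.23 and 0.13. In WT and KO cells 4 and 0 of them had an unadjusted p under 0.05 by edgeR, where 6854 and 1077 of all 14279 tested genes did. Among 17 tested TCF factors and cofactors, 2 were called higher and 0 lower in WT cells. Over all tested genes the shares were 10.0% and 9.26%. The β-catenin coactivator Bcl9l rose by 0.89 and the corepressor Tle3 by 0.74 (edgeR, adjusted p = 2.78e-07 and 3.49e-05). Of 6 tested inhibitors, 3 were called higher and 0 lower, among them Apcdd1 at 2.17 and Tpbg at 1.94 (edgeR, adjusted p = 0.00604 and 0.000123). Apcdd1, which binds Wnt and LRP5, had 6 to 7 counts in the WT soft and 25 to 30 in the WT stiff libraries, and its call was lost without WT soft replicate 1 or WT stiff replicate 1.

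Genes known as β-catenin targets in other tissues moved in both directions in WT cells on the stiff gel, with 1 of 8 tested called higher and 2 lower. The cyclin gene Ccnd1, also a target of YAP and TAZ, rose from 18.5 and 21.3 to 68.6 and 70.8 CPM, a log2 fold change of 1.81 (edgeR, adjusted p = 9.02e-12). Id2, an inhibitor of bHLH factors, and the homeobox gene Prox1 had -1.09 and -1.02 (edgeR, adjusted p = 7.77e-08 and 2.33e-09). Among 7 tested adhesion partners of the catenins, 2 were called higher and 1 lower. In this comparison 10.0% of all tested genes were called higher and 9.26% lower. Ctnnd1, p120-catenin, rose by 0.66 and the desmosomal Pkp2 by 0.55, and vinculin (Vcl) had -0.58 (edgeR, adjusted p = 2.82e-07, 8.89e-08 and 3.01e-08).

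Over the 9 pathway and zonation lists 110 of 152 genes were tested. In WT cells on the stiff gel 18 were called higher and 14 lower, which was 29.1% against 19.3% of all tested genes, and the lists were not compared with other genes by a test. The interaction called 15 higher and 15 lower, 27.3% against 16.8% of all tested genes.

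**Figure D4:**
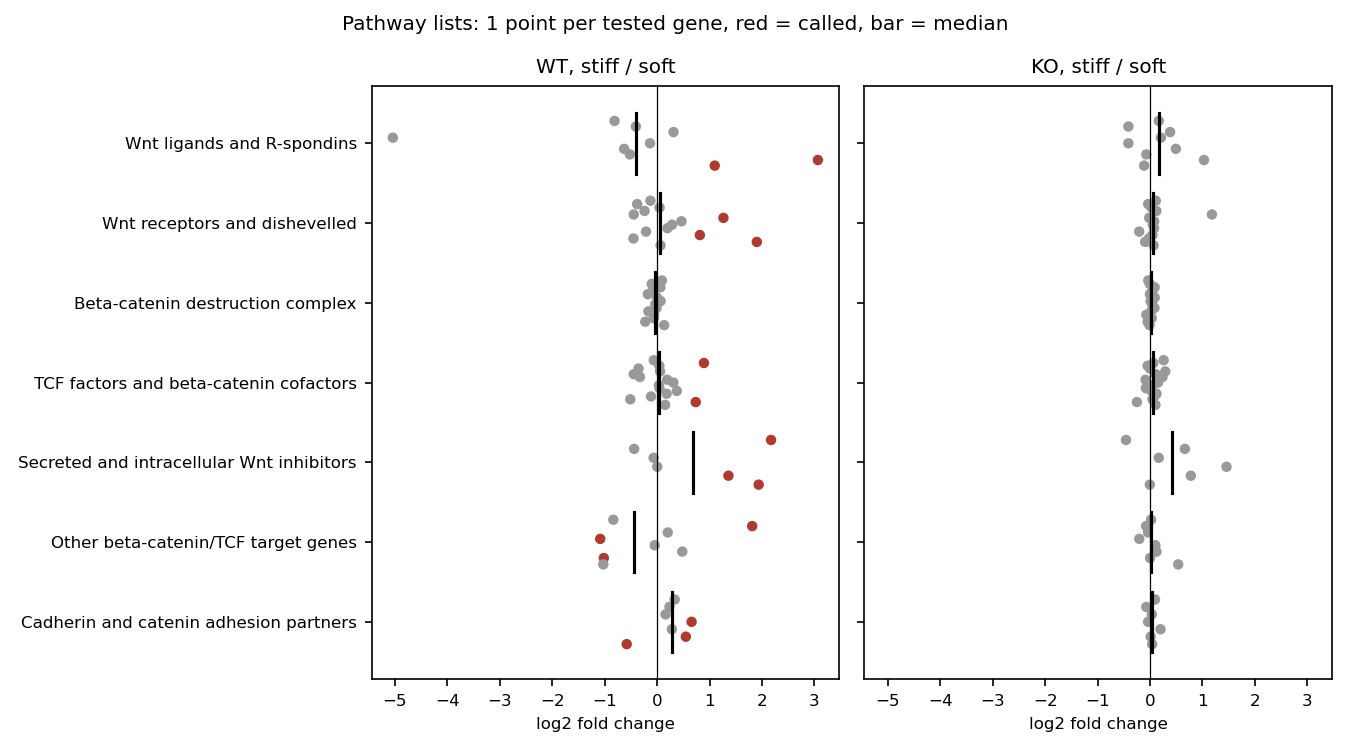
Log2 fold change for stiff over soft (x axis, same scale in both panels) in WT and KO cells of the tested genes of 7 Wnt pathway lists, with 1 point per gene, red for a called gene and a bar at the list's median. Destruction complex genes lie between -0.23 and 0.13 in WT cells, and no gene is red in KO cells. The ligand at the far left is Wnt16, which had 0 counts in both WT stiff libraries, so its fitted value is no measured fold.

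Among the members themselves, the pattern over the 8 libraries was most alike for Ctnnb1 and Rnf43, with a Pearson r of 0.957 for log2 CPM, and for Ctnnb1 and Lect2, with 0.939. Lgr4 and Tcf7l2 had an r of 0.133. The tested genes most like each member were Cbr1 and Ulk1 for Ctnnb1 (0.998 and 0.997), Klhl3 and Pih1d1 for Rnf43 (0.997 and 0.993), Pcmtd2 and Rsph4a for Tcf7l2 (0.979 and 0.975) and Eola1 and Ears2 for Znrf3 (0.992 and 0.958). For Lgr4 they were Etnk2 and Dzip1 (0.969 and 0.956) and for Tbx3 Fgr and Poldip2 (0.961 and 0.954). An r over 0.9 was shared by 1863 genes with Ctnnb1 and 1333 with Rnf43 but by 11 with Lgr4 and 21 with Tbx3. These values describe 8 libraries in 4 groups and carry no test.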

How the data were processed

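Reads were aligned by the authors with HISAT2 (version 2.0.5), and the deposited values are raw read counts per gene from featureCounts, not normalized, beside gene length and position. The processing notes name mm9, but the positions of the 10 members differed from GRCm38.p6 and their build was not settled, so they are printed as deposited. How the counting treated strand is not given in the sources used here. No sequence window of 64 bases was shared by a member and another gene.

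Counts were filtered with filterByExpr by group, scaled by TMM and fitted for all 8 libraries with glmQLFit and glmQLFTest (edgeR 4.0.16, limma 3.58.1, R 4.3.3), with 4 residual degrees of freedom and adjustment over 14279 genes. Alternatives covered DESeq2 1.42.0, scaling, filter, robust fitting, replicate block, libraries in the fit, threshold and each library left out. Counts of alternative fits include the change of threshold, which reused the main fit. Its fold changes therefore equal the main values, and a called gene could not lose its call there. CPM divides a count by its library's total over tested genes times the TMM factor, and 3 counts were 0.116 to 0.167 CPM. Correlations used log2 CPM with a prior count of 2. Steps were tested on simulated data. Figures were drawn with matplotlib 3.10.9.

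Named beside the members were the deleted genes, defining zonation genes, Wnt2, Wnt9b and Rspo3, up to 2 called genes per direction and list with the largest WT stiffness change, the 2 genes most like each member, and genes that decide a count of 5 or fewer. Wnt16 and 1110028F11Rik were named after their values were seen. Sex-linked genes were added as a check of the labels. Members and lists were chosen with earlier results of these data known.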

Additional observations from a re-analysis of the deposited data

Results flagged for a closer look

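The stiffness response of Lect2 differed between genotypes, with an interaction of 0.90 on the log2 scale (log2 fold change of -0.88 in WT and 0.02 in KO cells; edgeR, adjusted p = 0.00346). Among the other named genes, the interaction was also called by edgeR, at a higher value in KO, for the pericentral genes Slc13a3 (2.43), Cyp2e1 (1.77), Cyp1a2 (1.35) and Glul (0.89), the periportal genes G6pc (1.66) and Hsd17b13 (0.55), the target genes Prox1 (1.02) and Id2 (0.88), and Vcl (0.62). It was called at a lower value in KO for the ligand Wnt9a (-1.21), the receptors Ror1 (-1.99) and Fzd4 (-1.28), the cofactors Bcl9l (-0.83) and Tle3 (-0.99), the inhibitor Tpbg (-1.94) and the cyclin gene Ccnd1 (-1.89). The same held for Aldh1a1 (-1.63), Aldh1b1 (-0.96), Cyp2f2 (-0.84), Ctnnd1 (-0.69), Pkp2 (-0.53) and the deleted genes Yap1 (-0.52) and Wwtr1 (-0.76). For Tpbg, Hsd17b13, Pkp2 and Yap1 this call was lost in at least 1 fit that left out a library.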

How the results depend on the processing

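Of 623 recomputed log2 fold changes of the 7 tested members, 593 kept their direction and side of the thresholds. With DESeq2 the members called for WT stiffness numbered 1 in place of 2, and all genes called 2389 in place of 2754. With adjusted p only, 4 of the 7 members were called for WT stiffness, 3 for the interaction and 5 for KO over WT on the stiff gel. The same setting called 5859, 4192 and 7299 of all 14279 tested genes in these comparisons. For WT stiffness it called 55 of the 110 tested listed genes. In some fits that left out a library, such as without WT stiff replicate 2, the filter admitted 8 members in place of 7. Leaving out 1 library gave 1 to 2 members for WT stiffness, 1 to 2 for the interaction, 0 to 1 for KO over WT on the soft gel and 2 to 4 on the stiff gel. The 4 came without WT stiff replicate 2 and the 0 without KO soft replicate 1, and beyond the smaller number of samples the cause was not tested.

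With library size only, Znrf3 in KO over WT on the soft gel turned to 0.0353. Leaving out 1 library gave, for Tbx3, -0.14 to 0.20 (WT stiffness), -0.13 to 0.39 (KO stiffness) and -0.16 to 0.35 (interaction), and for KO stiffness -0.11 to 0.0097 (Tcf7l2), -0.0196 to 0.16 (Rnf43) and -0.19 to 0.20 (Lect2). Znrf3 in KO over WT on the soft gel ran from -0.064 to 0.0384, and Sds in WT from -0.32 to 0.39. None of these was called in the main analysis. For the other named genes, 1553 of 1587 values kept direction and side.

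Deviations of libraries with the same number correlated at -0.10 to 0.04, so the numbers were not taken as pairs. With a replicate block the counts of members were 2 (WT stiffness), 0 (KO stiffness), 1 (interaction), 1 (KO over WT, soft) and 2 (KO over WT, stiff), as without it. With 2 libraries a group and 54 to 98 counts, changes of Tbx3 under about 0.5 on the log2 scale were not detectable.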
